A study of Danio rerio with 4 samples.

Results

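The genes described here encode Sox factors and the neurogenic basic helix-loop-helix (bHLH) factors of the ascl, neurog, neurod, atoh and olig families, as measured on an expression array of whole zebrafish embryos. Array features were taken by name from the annotation in the authors' deposited table: a zebrafish symbol of one of these families, or, where no zebrafish symbol was given, a human ortholog name of one of them, with sox10 left out (1 feature). The rule used no expression values and gave 50 of 37176 features, of which 31 were Sox and 19 were bHLH features. All 50 were measured on every array, and no filter on low values was applied. Of the 50, 20 carried a zebrafish symbol, covering 19 genes, and 30 were known only by a human name. The latter are written here in capitals (SOX9), and where several features shared a name they are lettered in order of mean signal (SOX9 feature A, SOX9 feature B). A human name does not tell which zebrafish gene was measured, since zebrafish often keep a pair of copies of one human gene (sox9a and sox9b), and lettered features may probe the same transcript.

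RNA was measured on 4 arrays, 2 for each of a pair of genotypes. Embryos called transgenic carried Tg(hsp70-hRASG12V), an activated human RAS oncogene behind the heat-inducible hsp70 promoter, which acts throughout the embryo rather than in neural tissue alone; the design text describes these embryos as heterogeneous. Wild-type embryos carried no transgene, and their titles bear the tag ab. Both genotypes were raised at 28.5 °C, heated to 37 °C for 1 h at 24 hours after fertilisation and collected at 30 hours, so all 4 arrays share the heat shock, and no unheated embryos were analysed here. Each array held RNA from a pool of 50 embryos; the design text speaks of 3 biological replicates, of which 2 per genotype were analysed here. Whether the genotypes shared parents, clutch or handling is not given, and these cannot be told apart from the transgene in any result below.

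Sox proteins bind DNA through an HMG box and are grouped by sequence. SoxB1 factors hold neural cells in the progenitor state, SoxB2 and SoxC factors act as cells leave it, SoxD factors modulate other Sox proteins, SoxE factors serve neural crest, glia and cartilage, and SoxF factors serve blood vessels and endoderm. Proneural bHLH factors such as Neurog and Atoh commit progenitors to a neuronal fate and raise Notch ligands, which restrain neighbouring cells through her and hes repressors. NeuroD factors act later in the same cascade, and Olig factors mark ventral and dorsal progenitor domains of the spinal cord and hindbrain.

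Values are log2 intensities, the base being inferred from their range, and a difference of 1 is a doubling of the measured signal. Array medians lay between 9.50 and 9.62. Limma called 17.6% of all features at an adjusted p of 0.05, 10.3% as higher and 7.28% as lower in transgenic embryos. Of those calls 58.6% were higher, a share that became 47.7% after median centring of the arrays. Passing the threshold needed both transgenic arrays. With either left out, the spread was estimated from the wild-type pair alone. Such a fit cannot tell whether the calls depend on the values of 1 transgenic array. Without transgenic replicate 1 the log2 fold changes of SOX9 feature A, OLIG2 and neurog1 were 1.54, -1.18 and -0.73. Without transgenic replicate 2 they were 1.57, -1.15 and -0.58, against 1.56, -1.17 and -0.65 with all arrays. The wild-type arrays differed more from each other than the transgenic arrays did: for the 50 features the median gap between the arrays of a genotype was 0.20 in wild type and 0.11 in transgenic embryos, against 0.24 and 0.14 over all features. All 9 measured markers of muscle, epidermis and red cells, tissues that a whole embryo should hold, read at least 11.64 on every array. Among them the epidermal marker cdh1 rose by 1.34 ± 0.14 (limma adjusted p = 0.012). The muscle marker myhz2 rose by 0.94 ± 0.18 (limma adjusted p = 0.031), and the others did not pass. Of those, the epidermal markers krt4 and krt5 differed by -0.16 and -0.36. The muscle markers tnnt3b, acta1b and mylpfa differed by 0.10, -0.17 and -0.02. The transgene itself has no known probe among the features, and the genotype labels went unchecked. In RNA from whole embryos, a change in the number of cells of a type cannot be told apart from a change in RNA per cell, for any gene here.

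Both features named SOX9 rose, and the olig features and neurog1 were among those that fell. In transgenic embryos 2 features were called higher and 7 lower, and 41 did not pass. The 7 lower features carried only 5 gene names, since olig3 was measured by more than 1 of them. Counts and shares below are of features, not of independent genes. The share called (18%) was close to the 17.6% of all features, so the number of calls is no result about these families. By direction, 4% of the features were higher, against 10.3% of all features, and 14% were lower, against 7.28%. The 2 families differed in where their fold changes lay. Of the 19 bHLH features 17 had a negative log2 fold change, with a median of -0.41, and 6 were called lower and 0 higher (limma; 0 were higher and 11 lower at an unadjusted p under 0.05). Of the 31 Sox features 16 were negative, with a median of -0.02, and 2 were called higher and 1 lower. Over all features 49.5% were negative and the median was 0.01. At an unadjusted p under 0.05 in limma, 7469 of the 37176 features were higher and 6257 lower. Counts at that p in the paragraphs below are to be read against these. Both transgenic arrays lay below both wild-type arrays for 15 of the 19 bHLH features and 11 of the 31 Sox features, against 33.1% of all features, and above them for 2 and 11, against 34.4%. Within wild type, replicate 1 read higher than replicate 2 for 35 of the 50 features, against 19024 of 37176 over all features. It did so for 6 of the 7 features called lower. Features here can thus move together between arrays of 1 genotype, and they are not separate observations of a genotype difference. The difference between the families was not tested.

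**Figure D1:**
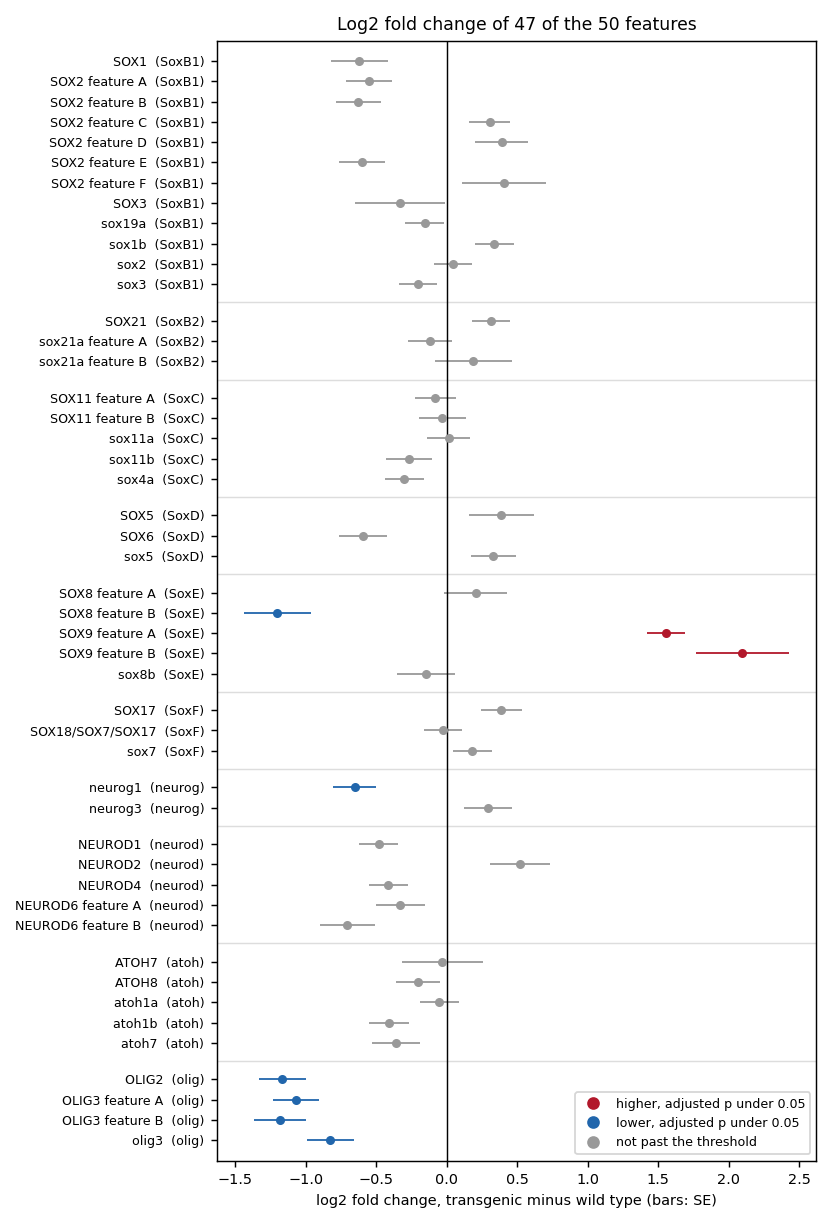
Log2 fold change, transgenic minus wild type, of 47 of the 50 features with its standard error, by subgroup; red and blue mark features past an adjusted p of 0.05. The 2 SOX9 features lie farthest to the right, at 1.56 and 2.10, and all 4 olig features lie to the left of -0.8 in blue.

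**Figure D2:**
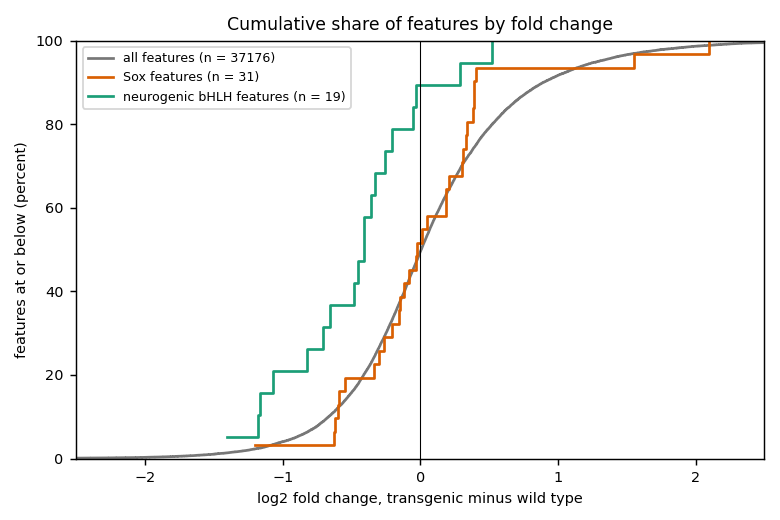
Cumulative percentage of features (vertical axis) by log2 fold change (horizontal axis) for all 37176 features, the 31 Sox features and the 19 bHLH features. The bHLH curve runs to the left of the curve for all features, with 89.5% of its features below 0 against 49.5%, and the Sox curve crosses it.

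The largest rises among these features were those of SOX9, in the SoxE subgroup. SOX9, in vertebrates a factor of cartilage, neural crest and glia, was represented by 2 features, which cannot be assigned to sox9a or sox9b. SOX9 feature A read 13.51 and 13.47 on the transgenic arrays and 11.94 and 11.93 on the wild-type arrays. All 4 arrays were tight around their group means, and the groups lay far apart. The feature rose by 1.56 ± 0.14 on the log2 scale, where ± gives the SE and each genotype has n = 2 arrays. This is 2.94-fold, with an adjusted p of 0.0093 in limma.

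SOX9 feature B read 12.98 and 12.89 on the transgenic arrays against 10.37 and 11.31 on the wild-type arrays. The wild-type arrays differed by 0.94, the widest gap within wild type among the 50 features, yet both lay well below the transgenic arrays. It rose by 2.10 ± 0.33, 4.28-fold (adjusted p = 0.022), and by 1.62 without wild-type replicate 1, which was the lower of the pair. Its log2 fold change exceeded that of 98.9% of all features, and that of SOX9 feature A exceeded 97.0%.

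SOX8 belongs to the same subgroup and overlaps with SOX9 and SOX10 in neural crest and glia. The features named SOX8 were dim, and sox8b was little brighter, with group means of 7.24 in transgenic and 7.38 in wild type. SOX8 feature B, called lower, read 4.11 and 4.36 on the transgenic arrays and 5.16 and 5.71 on the wild-type arrays (log2 fold change -1.20 ± 0.24, adjusted p = 0.034). All 4 values lie below 7.05, the smallest of the 25th percentiles of the 4 arrays, and without a detection call an unknown share of such signal is background, so no fold is given. SOX8 feature A differed by 0.21 ± 0.22 (adjusted p = 0.54), a difference that turned to -0.02 without wild-type replicate 1, and sox8b by -0.15 ± 0.20 (adjusted p = 0.64); the genotypes overlapped for both.

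The plot of called features shows the SOX9 rise beside the falls of neurog1 and the olig genes, array by array.

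**Figure D3:**
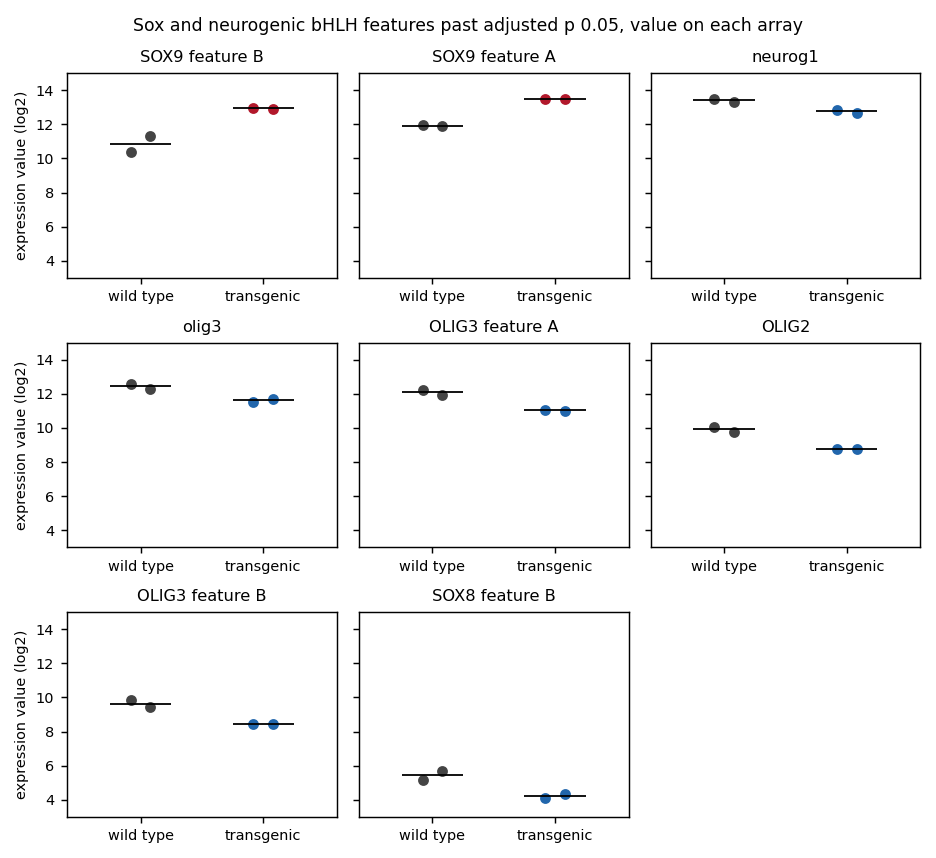
Log2 expression value (vertical axis) on each of the 4 arrays for 8 of the 9 features past an adjusted p of 0.05, with the group mean as a line. Wild type is on the left and transgenic on the right of each panel; the arrays of the 2 genotypes do not overlap in any panel, and SOX8 feature B is the panel near the bottom of the range.

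The SoxB1 genes, which keep neural cells in the progenitor state, gave 0 calls among 12 features in limma (3 of the features named SOX2 and the feature named SOX1 had an unadjusted p under 0.05, all lower). The core progenitor factor gene sox2 read 14.35 and 14.30 on the transgenic arrays and 14.26 and 14.30 on the wild-type arrays. These values nearly coincide. The log2 fold change was 0.05 with a 95% interval from -0.31 to 0.40, and its sign turned (-0.05) when arrays were centred on their medians. Its close relative sox3 read 14.66 and 14.69 against 14.87 and 14.89 (-0.20 ± 0.14, adjusted p = 0.33). The wild-type arrays were both higher, but the difference did not pass. The feature named SOX3 differed by -0.33 ± 0.32 with overlapping arrays.

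Of the zebrafish-named SoxB1 genes, sox1b differed by 0.34 ± 0.14 and sox19a by -0.16 ± 0.14. The feature named SOX1 went the other way from sox1b, at 9.26 and 9.30 in transgenic against 10.14 and 9.67 in wild type (-0.62 ± 0.20, adjusted p = 0.096). Whether it probes sox1a, sox1b or neither is not known.

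The 6 features known only as SOX2 did not move together. SOX2 features A, B and E had negative log2 fold changes, at -0.55 ± 0.16, -0.62 ± 0.16 and -0.60 ± 0.16, with adjusted p values of 0.077, 0.060 and 0.067, and their transgenic arrays lay below their wild-type arrays. SOX2 features C, D and F had positive ones, at 0.30 ± 0.15, 0.39 ± 0.19 and 0.41 ± 0.30, with adjusted p values from 0.20 to 0.37; feature F was dim, with a wild-type mean below 7.05. In this annotation the human name SOX2 is not reserved for zebrafish sox2, since sox19a carries it too. SOX2 feature B read 13.08 and 12.82 in transgenic against 13.63 and 13.52 in wild type, which makes it the SoxB1 feature with the largest difference. SOX2 features A, B and E passed when eBayes was given an intensity trend or when features below the 25th percentile of mean signal were left out.

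The other Sox subgroups gave 0 calls in limma among 14 features, and 2 of them had an unadjusted p under 0.05, SOX6 downward and SOX17 upward. In SoxC, whose members are strongly expressed in newborn neurons, sox11b read 14.80 and 14.53 in transgenic against 14.98 and 14.87 in wild type (-0.26 ± 0.16, adjusted p = 0.30) and sox4a read 12.89 and 12.95 against 13.26 and 13.18 (-0.30 ± 0.14, adjusted p = 0.19). The remaining SoxC features, sox11a and 2 named SOX11, differed by -0.08 to 0.01. In SoxB2, SOX21, a gene whose product opposes SoxB1 activity, read 12.95 and 12.96 against 12.64 and 12.65 (0.31 ± 0.13, adjusted p = 0.17), with the arrays of each genotype nearly equal. Both features of sox21a overlapped between genotypes.

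SoxD was split. SOX6, which in zebrafish muscle represses slow-fibre genes, read 12.62 and 12.63 in transgenic against 13.37 and 13.06 in wild type. It differed by -0.59 ± 0.17 (limma adjusted p = 0.073) and passed without features below the 25th percentile. Features outside the rule with the same human name differed by 0.69, 0.05 and -0.13 and did not pass. The sox5 feature read 13.40 and 13.50 against 13.00 and 13.23 (0.33 ± 0.16, adjusted p = 0.20), and the feature named SOX5 differed by 0.39 ± 0.23.

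SoxF genes act in blood vessels, and here they did not pass although vessel markers did. The sox7 feature read 9.20 and 9.15 in transgenic against 9.04 and 8.94 in wild type (0.18 ± 0.14, adjusted p = 0.39). SOX17, which also marks endoderm, read 7.53 and 7.41 against 7.03 and 7.14 (0.39 ± 0.14, adjusted p = 0.12). A feature that the table names for SOX18, SOX7 and SOX17 together differed by -0.02. Of 10 endothelial markers measured 6 were called higher, with log2 fold changes in the list from -0.40 to 1.53 and a median of 0.86, and the mean level of the list was 10.69 and 10.87 on the transgenic arrays against 9.90 and 10.05 on the wild-type arrays. Whether vessel cells had a part in the values of the Sox genes was not tested.

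Neurogenin-1, needed for cranial sensory ganglia and spinal sensory neurons, was measured by neurog1, which read 12.84 and 12.69 in transgenic against 13.50 and 13.34 in wild type. Both transgenic arrays were lower, by more than the gap within either genotype. It fell by 0.65 ± 0.15, 1.57-fold, with an adjusted p of 0.048 that lies just inside the threshold and became 0.064 without wild-type replicate 1. The neurog3 feature, a gene named for a factor that in mouse makes endocrine pancreas, was dim, at 6.68 and 6.93 against 6.61 and 6.42 (0.29 ± 0.17, adjusted p = 0.27).

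NeuroD genes, which act after the proneural genes in differentiating neurons, gave 0 calls among 5 features in limma, with 3 lower at an unadjusted p under 0.05. NEUROD4 read 13.48 and 13.52 in transgenic against 13.92 and 13.91 in wild type (-0.41 ± 0.14, adjusted p = 0.098), and NEUROD1 read 11.22 and 11.16 against 11.70 and 11.64 (-0.48 ± 0.14, adjusted p = 0.075). In both genes the arrays of a genotype nearly coincided and the genotypes were apart. NEUROD6 feature A differed by -0.33 ± 0.17 and NEUROD6 feature B by -0.70 ± 0.20 (adjusted p = 0.24 and 0.069). The dim NEUROD2 feature differed the other way, by 0.52 ± 0.21 (adjusted p = 0.15).

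Atonal-type genes gave 0 calls among 5 features in limma, with 1 of them, atoh1b, lower at an unadjusted p under 0.05. Atoh1 factors specify hair cells and cerebellar granule neurons: atoh1b read 11.35 and 11.39 in transgenic against 11.85 and 11.72 in wild type (-0.41 ± 0.14, adjusted p = 0.11). Its copy atoh1a read 10.84 and 10.78 against 10.91 and 10.81 (-0.05 ± 0.14, adjusted p = 0.82), nearly the same in both genotypes; the difference between the copies was not tested. The retinal ganglion cell factor gene atoh7, whose transgenic mean was below 7.05, differed by -0.36 ± 0.17, ATOH7 by -0.03 ± 0.29 and ATOH8 by -0.20 ± 0.16.

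All 4 olig features fell. Olig2 serves motor neuron and oligodendrocyte progenitors in the ventral spinal cord, and olig3 serves dorsal progenitors of hindbrain and spinal cord. OLIG2 read 8.78 and 8.75 on the transgenic arrays and 10.08 and 9.78 on the wild-type arrays. The transgenic arrays were tight and the wild-type arrays 0.31 apart, with no overlap. It fell by 1.17 ± 0.17, 2.24-fold (adjusted p = 0.019).

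For olig3, the feature with the zebrafish symbol read 11.54 and 11.70 in transgenic against 12.58 and 12.31 in wild type and fell by 0.82 ± 0.17, 1.77-fold (adjusted p = 0.037). OLIG3 feature A read 11.03 and 11.02 against 12.25 and 11.94 (-1.07 ± 0.17, adjusted p = 0.022), and OLIG3 feature B read 8.44 and 8.47 against 9.83 and 9.44 (-1.18 ± 0.18, adjusted p = 0.022). On each of the 3 features wild-type replicate 1 was the higher of its pair, and both wild-type arrays lay above both transgenic arrays. These features share a gene name and are not independent of each other.

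Genes that work with these factors, and markers of cell types, were taken from 9 lists of 143 genes in all. By zebrafish symbol 77 of them were found, each measured by its brightest feature. Genes not found may still lie among the features without a zebrafish symbol. Of the 77, 8 were called higher and 4 lower, against 10.3% and 7.28% of all features. The list of Notch ligands and receptors also held mib1, rbpja and rbpjb, which are neither. Of its 9 measured genes 0 passed in limma (3 at an unadjusted p under 0.05, all higher). The deltaA gene dla, whose transcription proneural factors raise, was picked after its values were seen and differed by -0.17 ± 0.15. The vessel ligand gene dll4 differed by 0.62 ± 0.15 (adjusted p = 0.051) and the receptor gene notch1b by 1.16 ± 0.31 (adjusted p = 0.062), with wild-type arrays at 9.52 and 10.38. Of 6 her, hes and hey genes, her12 fell by 0.82 ± 0.18, just inside the threshold (limma adjusted p = 0.042). The gene hey1, which also acts in vessels, rose by 1.13 ± 0.22 (limma adjusted p = 0.032). The heyl feature, with both group means below 7.05, differed by -0.95 ± 0.23 (limma adjusted p = 0.053). The bHLH partner and Id inhibitor genes gave 0 calls of 7 (1 at an unadjusted p under 0.05, id2b, which differed by 0.74 ± 0.21).

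Downstream of the proneural factors 0 of 5 genes passed in limma, with gadd45gb.1 at -0.76 ± 0.18 (adjusted p = 0.0502, and 1 of the 5 at an unadjusted p under 0.05), insm1a at -0.23 ± 0.14 and ebf3a at 0.25 ± 0.19. Of 11 neuron markers 1 was called higher and 0 lower in limma, with a median log2 fold change of 0.09. At an unadjusted p under 0.05, 3 were higher and 0 lower. Both transgenic arrays lay above both wild-type arrays for 6 of the 11 genes and below them for 4. Over all features these shares were 34.4% and 33.1%. The genes above included stmn2a (0.45 ± 0.15, limma adjusted p = 0.097). Those below included the motor and sensory neuron factor genes isl1a (-0.36 ± 0.14) and isl2b (-0.38 ± 0.16), with limma adjusted p values of 0.14 and 0.15. The synaptotagmin gene syt1a rose by 0.63 ± 0.14 (adjusted p = 0.041, but 0.052 after quantile normalization and 0.059 after median centring), and sv2a, which encodes a synaptic vesicle protein, differed by 1.24 ± 0.30 (adjusted p = 0.051). The mean level of the list was 11.36 and 11.38 on the transgenic against 11.18 and 11.24 on the wild-type arrays.

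Markers of radial glia and progenitors included 2 falls among 12 genes, fabp7a, which encodes the brain lipid-binding protein of radial glia (-1.26 ± 0.24, adjusted p = 0.033), and slc1a3a, a glial glutamate transporter gene (-0.62 ± 0.14, adjusted p = 0.045, and 0.057 without wild-type replicate 1; the other of its 2 features did not pass). Of the 12 log2 fold changes in this progenitor list 9 were negative, with a median of -0.17. The largest positive one was that of msi2b, at 0.53 ± 0.24 (limma adjusted p = 0.18), and 1 of its 5 features was called higher. Beside the olig features, 1 of 9 genes of the oligodendrocyte lineage list fell, the myelin gene mpz (-1.11 ± 0.15, limma adjusted p = 0.016, 2 of its 3 features). The ventral progenitor gene nkx2.2b differed by -0.62 ± 0.15 (limma adjusted p = 0.051). In the same list 3 genes had positive log2 fold changes, the largest that of pdgfra, a gene of oligodendrocyte precursors, at 0.93 ± 0.32 (adjusted p = 0.11). Another of them, plp1b, differed by 0.15 ± 0.28 on its brightest feature, while 1 of its 4 features was called lower. Beside the SOX9 rise, 0 of 8 neural crest and cartilage genes passed in limma (1 higher and 2 lower at an unadjusted p under 0.05). The cartilage collagen gene col2a1a, which SOX9 is known to activate, differed by 0.65 ± 0.17 (limma adjusted p = 0.064). The cartilage markers matn4 and matn1 differed by -0.01 ± 0.14 and 0.04 ± 0.24, and matn1 was dim. The crest genes dlx2a and foxd3 differed by -0.49 ± 0.14 and -0.48 ± 0.14.

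**Figure D4:**
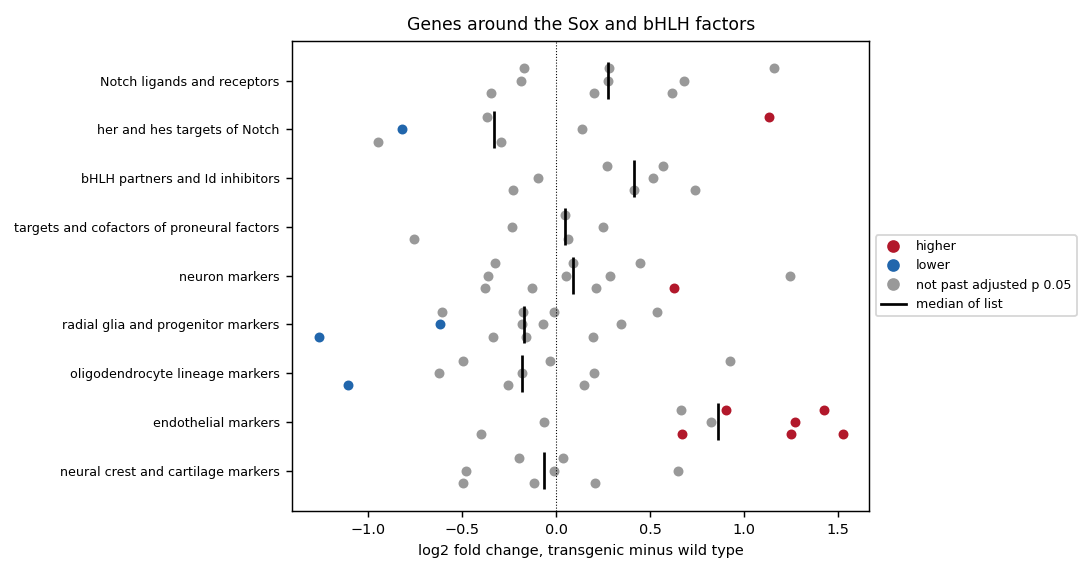
Log2 fold change (horizontal axis) of each measured gene of the 9 lists around the Sox and bHLH factors, 1 point per gene, with the list's median as a black bar; red and blue mark genes past an adjusted p of 0.05. The endothelial list lies to the right, with a median of 0.86 and 6 of 10 genes in red, and in no other list did more than 2 genes pass.

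In the authors' deposited table, 37 of the 50 features (74%) had a q-value under 0.05, against 67.7% of all features, and the 9 features called here were among the 37. The limma count of 7 lower features also moved with other settings. It was 14 with an intensity trend in eBayes and 12 without features below the 25th percentile, while the count of 2 higher was the same. Over all features the lower calls went from 2708 to 3976 of 37176 with the trend. With the filter they were 3259 of 27882. With a wild-type array left out, the spread was estimated from the transgenic pair alone, so no count from such a fit is read as a result. Without wild-type replicate 2 the log2 fold changes of SOX9 feature A, OLIG2 and neurog1 were 1.55, -1.32 and -0.73.

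**Figure D5:**
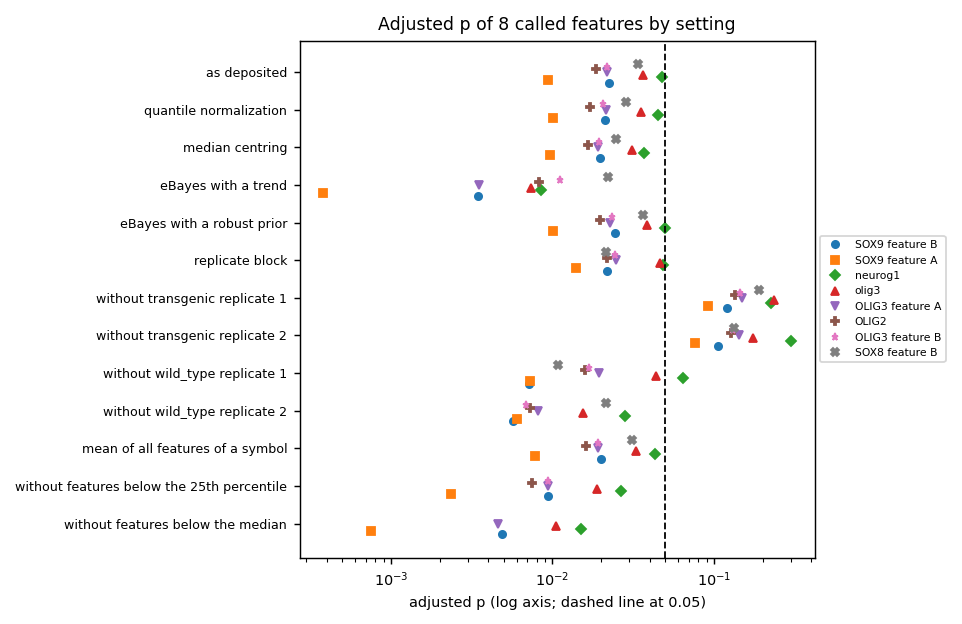
Adjusted p (log axis, dashed line at 0.05) of 8 of the 9 called features under each setting, 1 marker per feature. All 8 move past the line to the right when either transgenic array is left out, and neurog1, at 0.048 as deposited, also does so without wild-type replicate 1.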

How the data were processed

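Whole embryos were lysed in Trizol for total RNA, and Roche NimbleGen did the Cy3 labelling, per the labels. The authors deposited 1 value per feature and array, taken here as log2 from its range; background correction and normalization were not stated in any source at hand. They also deposited a log2 fold change, equal to the difference of the group means within 2.8e-08, and a q-value whose test is unstated. Slide and scan information was lacking, so batches went untested. Each array is a separate pool of embryos by the design text, and p-values measure the spread between 2 such arrays.

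Differences, standard errors and adjusted p values come from limma 3.58.1 (lmFit, eBayes, R 4.3.3) over all 37176 features, transgenic minus wild type, without a block, with Benjamini-Hochberg adjustment at 0.05. Each variance has 2 residual degrees of freedom and borrows 2.92 from the other features. The fit was also run on simulated data with independent features, far fewer of them changed than were called here. No result is drawn from that run. Symbols were updated through RefSeq names of assembly GRCz12tu (sox8 became sox8b); a listed gene stands for its brightest feature. Planned promoter motifs and the values of some genes are not reported here, though the counts include those genes.

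The members, gene lists and tests were chosen with earlier results of these data known. The rule for named features took called members, each subgroup's brightest and most different member, other features and copies of those genes, and the 3 genes of smallest p per list; other members were added after their values were seen. Alternatives were quantile normalization, median centring, filters on dim features, a trend or robust prior, a replicate block, other thresholds, the deposited q-values, the mean of a gene's features and leaving out each array.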

Additional observations from a re-analysis of the deposited data

How the results depend on the processing

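The counts of members called higher and lower (2 and 7) held within 1.5 times under quantile normalization, median centring, a robust prior and the replicate block, which gave 2 higher and 8 lower; under the block, list genes past the threshold went from 12 to 18. There syt1a and slc1a3a no longer passed (limma adjusted p = 0.052 and 0.057), while NEUROD6 feature B (0.048), notch1b (0.044), heyl (0.032), gadd45gb.1 (0.038), id2b (0.048) and sv2a did. Titles give both genotypes replicates 1 and 2, but a shared number alone pairs nothing here: deviations of same-numbered arrays correlated at 0.21 across features, over only 2 pairs. Members lower numbered 12 without features below the 25th percentile, 13 without those below the median, 14 with an intensity trend, 15 at an adjusted p of 0.10 and 26 by the deposited q-values, which gave 11 higher. Genes of the 9 lists past the threshold rose from 12 to 23, 24, 26, 27 and 62 under the same settings. All features past the threshold were 6538, 11247 at an adjusted p of 0.10 and 25150 by the deposited q-values. Leaving out each array gave 0 to 4 members higher, 0 to 14 lower, 0 to 26 list genes and 0 to 12163 features; the 0 belong to either transgenic array, where the lone array is assumed to vary like wild type. SOX8 feature A (0.21) ranged from -0.0177 to 0.4287 with an array left out. Other values that did not pass moved by over 1.5 times, among them SOX2 feature F (0.41) to 0.04 and SOX2 feature D (0.39) to 0.20 without wild-type replicate 2, sox11b (-0.26) to -0.13 without transgenic replicate 2, and NEUROD6 feature A (-0.33) to -0.16, sox5 (0.33) to 0.22, sv2a (1.24) to 0.83, ebf3a (0.25) to 0.04 and notch1b (1.16) to 0.73 without wild-type replicate 1. The 9 called features kept their direction under every setting that could be run for them; SOX8 feature B was removed by the filter at the 25th percentile, and OLIG2 and OLIG3 feature B by that at the median. The causes of these shifts were not tested. With no detection call, the depth behind dim values is unknown, and 8 members had a group mean below 7.05.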

Other observations

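A further 10 features carried a human SOX or ATOH name but another zebrafish name, and so fell outside the rule; 0 of them passed in limma, and their log2 fold changes ran from -0.24 to 0.69. The highest was 1 of 3 features with the human name SOX6, which read 12.73 and 12.89 on the transgenic arrays against 11.81 and 12.42 on the wild-type arrays, opposite in direction to the SOX6 feature of the report; the other SOX6 features of these 10 differed by 0.05 and -0.13. A related bHLH gene, FERD3L, was singled out after its values were seen. Its 2 features read 9.47 and 9.37 in transgenic against 11.08 and 10.86 in wild type, and 7.90 and 8.09 against 9.68 and 9.38. Both fell, by 1.55 ± 0.16 and 1.53 ± 0.18 on the log2 scale (limma adjusted p = 0.011 and 0.013).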
